A study of Mus musculus with 6 samples.

Results

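Spt16 regions that lay inside genes, away from any gene start, made up 413 of the 1253 regions listed for Spt16 (33.0%, 95% Clopper-Pearson interval 30.4 to 35.6). A region was taken when the nearest gene start deposited beside it was over 5000 bp from its middle and when the region overlapped at least 1 of the genes deposited for it. The rule used position only, so read numbers and overlaps with other lists were free to differ. The longest overlapped gene is called the host of a region, and 8 of the 413 regions overlapped more than 1 gene.

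The regions came from ChIP-seq, which sequences the DNA that an antibody pulls down with its protein, in tet-ON Oct4 mouse embryonic stem cells (C57BL/6 strain), whose Oct4 transgene doxycycline switches on. The cells had been differentiated with retinoic acid and then given PBS or doxycycline, which for the 10 h libraries was doxycycline per the file headers, and their chromatin was fixed with formaldehyde and sheared to 250 to 750 bp. Libraries used here were Spt16, Oct4 and Jmjd1c after 10 h of doxycycline, set against the input chromatin after 10 h of doxycycline, with 1 library each. The transgene, the retinoic acid and the doxycycline were common to ChIP and input, the labels do not say whether the line was 1 clone, and markers of the cell type could not be read from these region lists. Oct4 and input libraries at 0 h were not analysed here.

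Spt16 is the large subunit of FACT, a histone chaperone that it forms with Ssrp1. FACT loosens and rebuilds nucleosomes ahead of and behind RNA polymerase II, and it is known both at gene starts and along the bodies of transcribed genes. Oct4, encoded by Pou5f1, is a POU-domain factor needed for pluripotency and binds many sites far from gene starts, inside genes and between them. Jmjd1c is a Jumonji-family protein related to demethylases of histone H3 lysine 9.

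Library totals were 36669596 reads for Spt16, 15543450 for Oct4, 26736842 for Jmjd1c and 14592994 for the input. Reads were counted by the authors in the best window of each region, which was 152 to 201 bp wide (median 198) among the gene-body regions. Levels are given as reads in that window or as RPM, reads scaled to the library total. With 0 input reads, enrichment was computed over a floor of 3 input reads. It is then a lower bound set by that floor only, which leaves out counting error in the ChIP reads. With 1 or more input reads, enrichment has an exact binomial 95% counting interval. No group had a replicate, so no test between conditions could be made. Intervals of enrichment and of read ratios cover counting error in reads only. Intervals of shares treat the regions or genes of 1 library as independent draws, though they are not replicates. These share intervals leave out counting error in reads.

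Most gene-body regions carried few reads, and a short run of hosts carried many. The median was 38 Spt16 reads, the interquartile range was 30 to 47, and the full range 26 to 217. At 109 regions there were 30 reads or fewer, close to the lowest number that the authors' threshold let through, while 89 regions had 50 or more and 8 had 100 or more. No input read fell in the best window of 272 regions (65.9%, 61.1 to 70.4), 1 fell in 72 regions and 2 or more in 69. The regions were 152 to 710 bp wide (median 287) and covered 121.9 kb in all. Reads on the plus strand made up 37.8% to 67.5% of a region's reads, with a median of 50%.

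Median reads of the listed regions were close in the 4 position classes. All had passed the same threshold, and the lowest number was 26 reads in every class. The medians therefore cannot show whether Spt16 levels depend on position. Median Spt16 reads were 38 in gene bodies, against 35 within 5000 bp of a start, 37 outside genes and 38 where no gene was listed. The share without an input read was 65.9% in gene bodies and 69.0% (65.8 to 72.2) over the other 840 regions, and the intervals overlapped. Of the 23 Spt16 regions with 100 or more reads, 8 were in gene bodies and 15 elsewhere, and gene bodies held 33.0% of the whole list.

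The strongest gene-body region lay inside Abca4, which encodes a retinoid flippase of photoreceptor discs. On chromosome 3 at 121848231 to 121848784 (mm9), 101.1 kb into the gene, it held 217 Spt16, 84 Oct4 and 46 Jmjd1c reads against 0 input reads. Spt16 was at least 28.8-fold over the input floor there, the highest lower bound among the gene-body regions. Sema5b, which encodes an axon guidance semaphorin, held 139 Spt16 and 29 Oct4 reads against 0 input reads at chromosome 16, 35588036 to 35588503, at least 18.4-fold for Spt16. Slc35f4, a member of the nucleotide sugar transporter family, held 122 Spt16, 32 Oct4 and 30 Jmjd1c reads against 0 input reads, at least 16.2-fold for Spt16. In all 3 hosts the input window was empty, and Spt16 gave the most reads, in the deepest library.

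Next by the authors' score came Cnpy1 and Rnf220. Cnpy1 takes part in FGF signalling in zebrafish. Its region (chromosome 5, 28536344 to 28536838) held 132 Spt16 reads against 1 input read, a 52.5-fold excess with a counting interval of 9.27 to 2090, and 20 Oct4 reads against 0. Rnf220 encodes a ubiquitin ligase that acts on beta-catenin. Its region (chromosome 4, 117085765 to 117086216) held 127 Spt16 reads against 1, 50.5-fold (8.91 to 2012), and 38 Oct4 reads against 1. A single input read sets the width of both intervals.

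Other hosts among the 15 highest scores came from different families. Iqgap1, a scaffold protein of the actin cytoskeleton, held 111 Spt16, 20 Oct4 and 33 Jmjd1c reads against 0 input reads. Ncam2, a neural cell adhesion molecule, held 98 Spt16, 17 Oct4 and 24 Jmjd1c reads against 0, at 280.6 kb from its start. The gene 1700019D03Rik held 93 Spt16 and 20 Oct4 reads against 0, only 9.53 kb from its start, and Frmpd1, a protein with FERM and PDZ domains, held 88 and 20 against 0. These 4 regions were at least 14.7-, 13-, 12.3- and 11.7-fold over the floor for Spt16.

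Regions at St6galnac3, Lmod1, 0610012H03Rik (Them7 in RefSeq) and Stk39 were also in that set, and all but 0610012H03Rik were in neither other list. St6galnac3, a sialyltransferase, held 99 Spt16 reads against 2, and Lmod1, an actin nucleator of smooth muscle, held 107 against 4, which came to 19.7-fold (5.31 to 164.9) and 10.6-fold (4.04 to 39.8). Stk39, a kinase of ion cotransporters, held 73 Spt16 reads against 0, at least 9.68-fold. Foxn3, a forkhead repressor, and Dscam, a neuronal adhesion molecule, held the same 73 Spt16 reads and were in the Oct4 list with 19 and 21 reads.

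**Figure D1:**
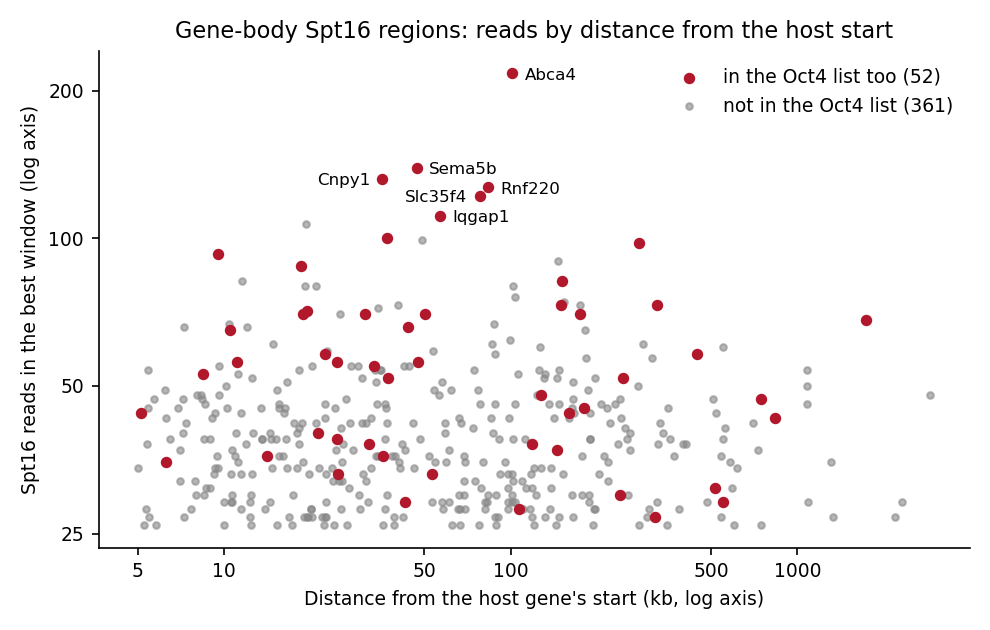
Spt16 reads in the best window of each of the 413 gene-body regions (log axis) against the distance from the host's start in kb (log axis); red points, 52 regions also in the Oct4 list, grey points, 361 that were not. Abca4, at 217 reads, stands above the rest, red points crowd the top, and high and low regions occur at every distance.

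Among regions that passed the authors' threshold, Spt16 reads showed little relation to the place in the gene. Across the 413 regions, the Spearman correlation of Spt16 reads with distance from the host's start was -0.0055 and with host length 0.024, both as descriptions across regions of 1 library. Median reads stayed between 35 and 39 in 6 classes of distance, from 39 reads at 44 regions 5 to 10 kb from the host's start to 38 reads at the 68 regions beyond 200 kb. The correlation of reads with region width was 0.69, but width and reads come from the same calling.

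Along the host, regions were spread from start to end. The median position was 53.6% of the way from the start, and 4 equal parts of the host, from start to end, held 93, 97, 119 and 104 regions. The rule takes the first 5000 bp of every host away from the first of them. Within 5000 bp of the host's end lay 34 regions (8.23%). The closest lay in Cdc25b, a cell cycle phosphatase, with its middle 29 bp before the end, and held 28 Spt16 reads against 0. In 1 host, Gmppa (GDP-mannose pyrophosphorylase A), named after its values were seen, the middle of the region was 105 bp past the end, with 42 Spt16 reads against 0. Exons and introns were not told apart here, since the deposited gene tables give only the start and the end of each gene.

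**Figure D2:**
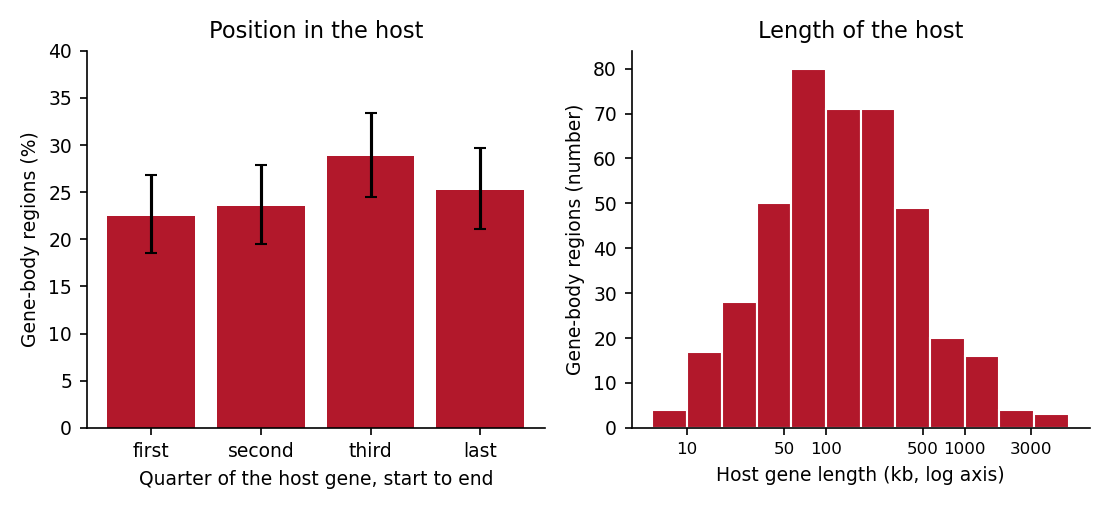
Left, share of the 413 gene-body regions in 4 equal parts of the host gene (%), with 95% Clopper-Pearson intervals; right, number of regions by host length in kb (log axis). From start to end the parts held 93, 97, 119 and 104 regions, and the median host was 129 kb long.

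Hosts were long genes. The median host spanned 129 kb, with an interquartile range of 58.7 to 280 kb and a range of 7.25 to 4435 kb. Counting each of the 369 distinct hosts once, the median was 118 kb, against 7.14 kb for the 2834 other genes deposited around Spt16 regions. The rule shapes this contrast: a gene must reach past 5000 bp to be a host, and a long gene offers more room. Gene types were unlike too: 352 of the 369 hosts matched protein-coding genes. The 2834 other genes were not limited to those, and the shortest spanned 0.056 kb. The 3 longest deposited spans were those of AC114005.5 (4435 kb), Fgfr2 (3009 kb), which encodes an FGF receptor, and Ptprd (2271 kb), a receptor tyrosine phosphatase. The AC114005.5 and Fgfr2 spans together hosted 5 regions, and distances for these rest on the spans as deposited. Ptprd held 27 Spt16 reads against 0 at 2198 kb from its start.

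Being inside a gene did not mean that the host's own start was the nearest. For 262 regions it was, while 151 (36.6%) lay nearer to the start of another listed gene. The median distance was 49.0 kb to the host's start and 26.1 kb to the nearest start of any listed gene. The region inside Sema5b, for example, was 47.0 kb from the start of Sema5b and 14.6 kb from that of the predicted gene Gm5963. Rnf220 showed the same arrangement, at 83.7 kb from its own start and 32.6 kb from that of Gm12828.

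The regions nearest the distance threshold on either side are given as values only. They were few and had all passed the same read threshold, so they cannot show whether levels differed across that distance. Just inside were Nt5e at 5030 bp from the start (34 Spt16 reads against 0), Mttp at 5129 bp (44 against 1) and Letmd1 at 5278 bp (26 against 0). Just outside were Gm7361 at 4986 bp (26 against 0), Ido2 at 4983 bp (29 against 0) and Epb4.1l1 at 4920 bp (42 against 2).

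How often did Oct4 lie on these regions? Of the 413, 52 overlapped an Oct4 region by at least 1 bp (12.6%, 9.55 to 16.2), beside 13.4% of all Spt16 regions. The share was 10.7% (7.81 to 14.3) within 5000 bp of a start, 16.3% (12.5 to 20.8) outside genes and 16.5% (10.7 to 24.0) where no gene was listed. The gene-body share was near that of all Spt16 regions, and intervals of all 4 classes overlapped. Overlap of intervals over regions of 1 library does not show that the shares are equal. The Oct4 library was the shallower one and, per the file headers, its list had 10 regions of uninduced cells taken out. The part of either in the overlap was not tested.

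Within gene bodies the overlap went with Spt16 strength. It was 4.40% (1.21 to 10.9) at 26 to 29 Spt16 reads, 7.07% (2.89 to 14.03) at 30 to 36, 8.04% (3.74 to 14.7) at 37 to 46 and 28.8% (20.6 to 38.2) at 47 to 217. The interval of the highest band lay above those of the 3 lower bands. In order of the authors' score, 15 of the first 20 gene-body regions were in the Oct4 list, then 12 of the next 30 and 4 of the last 113. Median Spt16 reads were 55.5 where Oct4 was listed and 37 where it was not. The same bands of all Spt16 regions gave 3.82%, 3.73%, 11.8% and 32.8%, so the pattern was not peculiar to gene bodies. In the highest band the share was 31.8% near starts, 38.4% outside genes and 32.4% where no gene was listed, with intervals that overlapped the gene-body one.

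**Figure D3:**
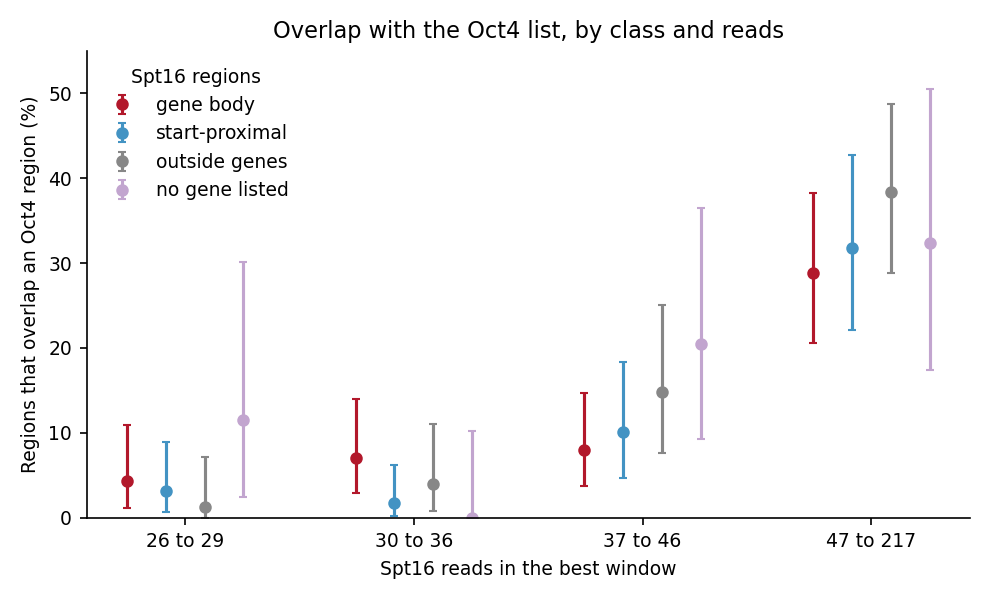
Share of Spt16 regions that overlapped an Oct4 region (%) in 4 bands of Spt16 reads, for gene-body regions and the 3 other position classes; bars are 95% Clopper-Pearson intervals. Gene-body shares were 4.40%, 7.07%, 8.04% and 28.8% from the lowest band to the highest.

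Position in the host differed little between regions with and without Oct4. Their median distance from the host's start was 49.1 kb with Oct4 and 49.0 kb without, and their median relative position 53.6% in both sets. Hosts had a median length of 209 kb with Oct4 and 125 kb without. The overlap was 9.09% (2.53 to 21.7) at 5 to 10 kb from the host's start and 16.2% (8.36 to 27.1) beyond 200 kb, and the intervals overlapped.

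Where both proteins were listed, their best windows lay almost on top of each other. The middles of the 2 windows were a median of 23.2 bp apart and at most 105.5 bp. At the other 116 shared regions the median was 26.5 bp and the maximum 277 bp. Regions counted as shared only if they overlapped, which by itself keeps the windows close. Spt16 regions were the wider in 45 of 52 cases, with a median of 378.5 bp against 252.5 bp for Oct4. The same held for 109 of the other 116, so neither trait was peculiar to gene bodies. The median was 55.5 Spt16 reads and 20 Oct4 reads, in libraries of unequal depth.

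Scaled to library totals, Spt16 and Oct4 reads could not be told apart by counting error at most shared gene-body regions. Different antibodies pulled down the 2 proteins, so the ratio compares reads and not amounts of bound protein. The ratio of Spt16 RPM to Oct4 RPM had a median of 1.13 and a range of 0.518 to 2.80, beside a median of 1.15 at the other 116 shared regions. Its 95% counting interval lay above 1 at 9 regions, beside 12.5% of all 168 shared regions, below 1 at 2 regions, beside 1.19%, and across 1 at 41. Each region had to pass the threshold in both lists, which limits how far a ratio can go either way where reads are few.

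Cnpy1 had the highest ratio, 3.60 RPM for Spt16 and 1.29 RPM for Oct4, or 2.80 (1.74 to 4.73). Ncam2 followed at 2.44 (1.45 to 4.36), Iqgap1 at 2.35 (1.45 to 4.0) and Sema5b at 2.03 (1.35 to 3.15). Abca4, the strongest region for both proteins, had 5.92 RPM for Spt16 and 5.404 RPM for Oct4, a ratio of 1.10 (0.847 to 1.43). The 2 regions where Spt16 was the lower were in Ss18 and Pigl, named after their values were seen. Ss18, a subunit of the BAF chromatin remodeller, held 35 Spt16 reads and 27 Oct4 reads, a ratio of 0.549 (0.323 to 0.944). Pigl, an enzyme of GPI anchor synthesis, held 33 and 27, a ratio of 0.518 (0.302 to 0.896). No region outside gene bodies had an interval below 1.

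**Figure D4:**
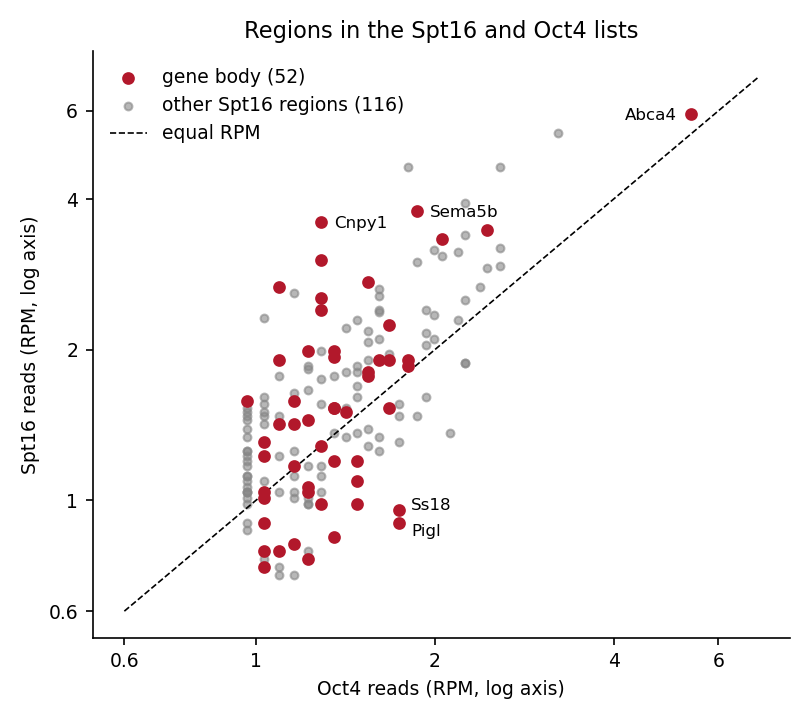
Spt16 RPM against Oct4 RPM (log axes) at the 168 regions in both lists; red points, 52 gene-body regions, grey points, 116 other Spt16 regions, dashed line, equal RPM. Abca4 lies near the line at 5.92 and 5.404 RPM, Cnpy1 far above it, and Ss18 and Pigl below it.

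Read from the Oct4 side, gene bodies were a common place too. Of 265 Oct4 regions, 93 (35.1%, 29.4 to 41.2) met the same position rule, and 52 of these (55.9%, 45.2 to 66.2) overlapped a Spt16 region. Over all 265 Oct4 regions, 168 (63.4%, 57.3 to 69.2) did. The matching share was 73.2% (59.7 to 84.2) for start-proximal Oct4 regions and 67.9% (56.4 to 78.1) for those outside genes. It was 57.9% (40.8 to 73.7) where no gene was listed. These intervals overlapped with that of the gene-body regions. Of the 369 hosts, 58 had an Oct4 region somewhere inside, and 10 of them had one that no gene-body Spt16 region overlapped. The 58 include hosts of the 52 shared regions by construction. The matching share of other genes was not counted, so the 58 are a count only.

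Jmjd1c was listed at 5 gene-body regions (1.21%, 0.394 to 2.80), beside 1.12% of all Spt16 regions. They were in Abca4, Slc35f4, Iqgap1, Ncam2 and Prickle1. Prickle1, a planar cell polarity protein, held 54 Spt16 and 34 Jmjd1c reads against 0 input reads and was the only one of the 5 that was not in the Oct4 list. Its region lay on chromosome 15 at 93351476 to 93351938, at 77.1% of the gene's length. Of the 24 Jmjd1c regions, 8 met the position rule in the Jmjd1c tables. Of those, 5 overlapped a Spt16 region, beside 14 of all 24.

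Most hosts had a single region. There were 328 with 1, 38 with 2 and 3 with 3, so 41 hosts held 85 regions. The hosts with 3 were Ppp1r9a, Accn1 (Asic2 in RefSeq) and AC114005.5. Ppp1r9a, which encodes the actin-binding neurabin, had regions of 80, 45 and 28 Spt16 reads against 2, 1 and 0 input reads, placed at 8.0%, 82.4% and 44.4% of its length. Accn1, an acid-sensing ion channel, had 46, 45 and 26 reads against 3, 3 and 0. None of these 6 was in the Oct4 list.

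Among hosts with 2 regions, 0610012H03Rik had the most reads, 100 against 3 and 90 against 2, set 108.8 kb apart, and the first of them was in the Oct4 list. Cnpy1 had a second region of 45 Spt16 reads against 0, set 22.2 kb from the strong one. Both regions of Foxn3, with 73 and 52 Spt16 reads against 0, were in the Oct4 list, and Foxn3 was the only host with several regions of which that was true. Nav2, a neuron navigator protein, had 80 against 2 and 33 against 0, and Ttc28 had 61 against 2 and 47 against 1. At 10 of the 41 hosts the nearest regions were under 10 kb apart, and the median gap was 32.2 kb.

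Few hosts were also marked at their own start. A Spt16 region lay within 5000 bp of the start of 11 of the 369 hosts (2.98%, 1.497 to 5.27), beside 1.3% of 21900 protein-coding genes. Since hosts were picked among genes with a Spt16 region nearby, that background is not matched to them. Rif1, whose product acts in replication timing and is abundant in pluripotent cells, was the only one whose start region was in the Oct4 list. It held 170 Spt16 reads against 0 at 560 bp from its start, while its gene-body region held 26 against 0 at 17.3 kb. The others, which were Arhgef18, Ccnd3, Dpys, Gpa33, Il3ra, Lims1, Morc1, Plcg2, Rfx4 and Tcf7l1, had 26 to 48 reads at the start region. Inside the gene these held 26 to 72 reads.

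What kinds of genes were hosts? Among 484 genes on 9 lists of pathways and functions, 52 (10.7%) were hosts, beside 1.63% of 21900 protein-coding genes. A longer gene offers more room for a region, and the lists were drawn up with earlier results in view, and 9 of the 52 hosts had been named in those results. The shares are a description of the lists and single out none. With hosts limited to 200 kb, 1.09% of all 21900 coding genes, longer ones included, were hosts.

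With hosts of any length, lists of adhesion, guidance and lineage genes had the highest shares. Adhesion and cytoskeleton genes had 9 hosts of 53 (16.98%, 8.07 to 29.8), lineage transcription factors 10 of 68 (14.7%, 7.28 to 25.4), and axon guidance and neural adhesion genes 9 of 66 (13.6%, 6.43 to 24.3). With hosts of 200 kb or less the order turned over, and these counts were 3 (5.66%), 3 (4.41%) and 2 (3.03%). The shares were then below those of chromatin regulators (10.5%), retinoic acid genes (9.68%) and pluripotency genes (8.70%). Each share was still taken over all genes of the list, longer ones included. A list with many hosts over 200 kb therefore falls by construction, and the order is not matched for length. Start-proximal counts of the adhesion, lineage and guidance lists were 1, 1 and 0 genes. Pluripotency genes had the larger count at starts, with 4 hosts of 46 (8.70%, 2.42 to 20.8) and 17 genes (37.0%) with a Spt16 region within 5000 bp of the start. Over all protein-coding genes, 1.3% had such a start region. The start share was not recomputed without genes named in earlier results, so it is a description of the list only.

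**Figure D5:**
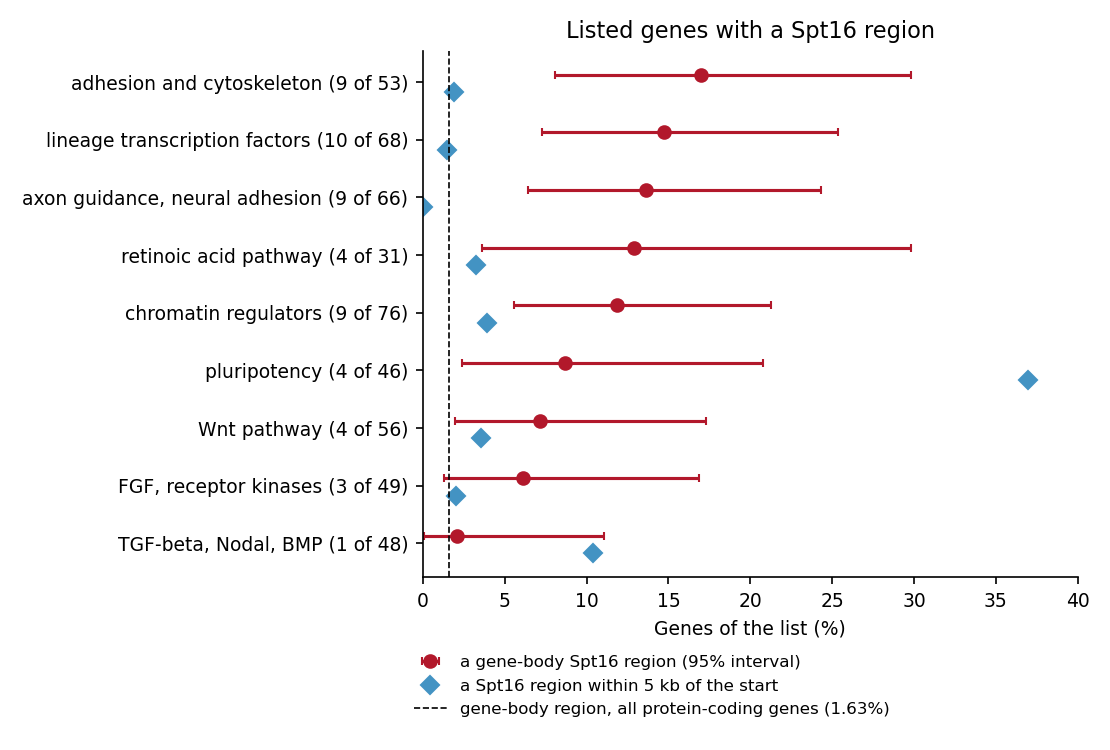
Share of the genes of each list that hosted a gene-body Spt16 region (red points, with 95% Clopper-Pearson intervals) and that had a Spt16 region within 5 kb of the start (blue diamonds), in %; the dashed line is the gene-body share over all protein-coding genes, 1.63%. For pluripotency genes the shares were 37.0% at the start and 8.70% in the gene body. The start share over all protein-coding genes, not drawn, was 1.3%.

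Axon guidance hosts beyond Sema5b, Ncam2 and Dscam had 28 to 60 Spt16 reads. Sema6d, another semaphorin, held 60 Spt16 reads against 0 at 95.3% of its length, and Epha4, an ephrin receptor, held 40 against 0. Nlgn1, the synaptic adhesion protein neuroligin 1, had regions of 35 against 0 and 34 against 1. The regions of these 3 hosts were not in the Oct4 list.

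Adhesion and polarity hosts were led by Iqgap1. The integrin subunit gene Itgb5 followed with 61 Spt16 reads against 2, a 12.1-fold excess (3.22 to 102.5). Pard3 and Pard3b, of the Par polarity complex, held 50 against 1 and 36 against 0. The junctional scaffold gene Magi1 held 38 against 0, and Fn1, which encodes fibronectin, held 32 against 0. Of these 6 hosts, Iqgap1 was the only one in the Oct4 list.

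Lineage regulators mostly had weak regions, with a median of 32 Spt16 reads over 15 regions. Zfhx3, a zinc finger homeobox gene, had 53 against 0, with 19 Oct4 reads, and a second region of 34 against 1. Ebf1, a B-lineage regulator, held 52 against 0 with 17 Oct4 reads, and Erg, an ETS factor of blood and endothelium, held 29 against 0 with 17 Oct4 reads. Tead1, the DNA-binding partner of Yap, had regions of 44 and 26 reads against 0. Foxp1, a forkhead factor, had 38 and 28, and Lmx1b, a LIM homeobox gene of limb and hindbrain, 35 and 32, with no input read at any of these.

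Chromatin regulators had 9 hosts of 76 (11.8%, 5.56 to 21.3), of which 8 were no longer than 200 kb. Tet2, an oxidase of 5-methylcytosine, held 71 Spt16 reads against 1 (28.3-fold, 4.91 to 1132) and 21 Oct4 reads against 1. Mtf2, a Polycomb repressive complex subunit, held 82 against 3 (10.9-fold, 3.59 to 53.8). Ehmt1, a histone H3 lysine 9 methyltransferase, held 40 against 0, and Ino80, a nucleosome remodeller, 39 against 0. Chd9, another remodeller, held 59 against 4 and Kdm2a, a histone demethylase, 32 against 0. Tet2 was the only one of these 6 in the Oct4 list.

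Pluripotency hosts other than Tet2, which is on that list too, had 26 to 34 Spt16 reads, below the gene-body median of 38. Without genes named in earlier results, 2 of 44 pluripotency genes (4.55%) were hosts. Esrrb, an orphan nuclear receptor of naive pluripotency, held 31 Spt16 reads against 0 at 85.9% of its length. Tbx3, a T-box factor, held 34 against 1. Retinoic acid genes had 4 hosts of 31 (12.9%, 3.63 to 29.8), and 2 of 29 (6.90%) without genes named in earlier results. Rarg, a retinoic acid receptor, had a region of 36 against 1 that overlapped an Oct4 region of 23 reads against 2, and a region of 29 against 0 that was not in the Oct4 list. Rdh10, a retinol dehydrogenase, held 45 against 1, Ncoa1, a nuclear receptor coactivator, 39 against 0 and Rxra, the partner of retinoic acid receptors, 32 against 0.

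Signalling pathway lists had 1 to 4 hosts each, and 1.63% of all protein-coding genes were hosts. Wnt genes had 4 of 56 (7.14%, 1.98 to 17.3), which were Rnf220, the R-spondin receptor genes Lgr4 and Lgr5, and Tcf7l1, a repressor of Wnt targets. Lgr5 held 38 Spt16 reads against 1 and 19 Oct4 reads against 1, while Lgr4 held 32 against 0 and Tcf7l1 33 against 0. FGF and receptor kinase genes had 3 of 49 (6.12%, 1.28 to 16.9), which were Fgfr2 with 48 against 1 and 47 against 2, Igf1r with 49 against 1, and the Ras pathway inhibitor Spred2 with 29 against 0. The deposited span of Fgfr2 is far longer than the gene as usually annotated, so its place among the hosts is uncertain. Its second region also overlapped another gene and lay 5972 bp from the start of Lhpp.

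TGF-beta, Nodal and BMP genes had 1 host of 48 (2.08%, 0.0527 to 11.1) and 5 genes with a start-proximal region. That host was Bmpr1b, a BMP receptor gene, with 27 Spt16 and 16 Oct4 reads against 0.

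Gene-body regions were found on every autosome. They made up 20% (10.4 to 33.0) of the Spt16 regions of chromosome 9 and 45.3% (35.02 to 55.8) of those of chromosome 2, the lowest and highest autosomal shares, whose intervals did not overlap. Chromosome X had 4 gene-body regions of 29, and chromosome Y had 0 of 7, for which the Clopper-Pearson interval reaches 41.0%. With 21 chromosomes compared, these extremes are given as values only.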

How the data were processed

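Per the file headers, the authors set each 10 h ChIP library against the input of that hour and retained regions whose log2 ratio reached 1 and whose Q value score reached 13. Per the submitters' processing notes, CASAVA 1.4 and Bowtie were used with the mm9 build, with the region caller not given in the sources used here. The deposited tables give whole-number read counts per strand in the best window of each region, which were summed here. The authors' log2 value is that of the ratio of scaled ChIP reads to input reads, with 1 added to each, and their score is minus log10 of a binomial p-value, times 10. Rank numbers absent from the Spt16 list (49) were not analysed here.

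Gene starts, ends and distances are those of the authors' gene tables, which list genes within 50 kb. A RefSeq table (GRCm38.p6) served for names only and matched 352 of 369 hosts. Region sequences were not analysed here, and 1 gene list is not reported here. Regions of 2 lists that shared 1 bp or more counted as overlapping. No molecular identifiers are named in the labels, so reads are not counted as independent molecules, and 1 input library served all lists. Members and gene lists were chosen with earlier results of these data known. Named were the 15 highest-scoring regions, the 12 highest in the Oct4 list and those in the Jmjd1c list. Up to 6 per gene list by score, up to 8 hosts with the most regions and the 3 longest hosts were named too. So were 3 regions on each side of the distance threshold and the region nearest its host's end. All 11 hosts with a Spt16 region at their own start were named as a set picked by that result. Others are marked. Alternatives changed the overlap rule, distances, host choice and the part of the list used. Code was tested on simulated data and used Python 3.11.15 with pandas 2.3.3, numpy 2.4.6, matplotlib 3.10.9 and scipy 1.17.1.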

Additional observations from a re-analysis of the deposited data

How the results depend on the processing

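No paired analysis was possible because each group held 1 library. Of 44 values recomputed under an alternative, 36 kept to the reported value within its interval or within 1.5 times its count. Many alternatives reused largely the same regions and had little room to move, so that tally says little about robustness. The count of gene-body regions was 484 with starts over 2000 bp away, 347 with starts over 10000 bp away, 412 with the middle of the region inside the gene, 393 with protein-coding hosts and, in an alternative chosen after seeing the data, 408 without host spans over 2500000 bp. The share with an Oct4 region was 19.3% in the higher-scoring part of the list, split at its middle. Among alternatives chosen after seeing the data, host spans of at most 200000 bp left 1 FGF gene, 0 TGF-beta genes, 2 axon guidance genes, 3 adhesion genes and 3 lineage factors, and leaving out genes named in earlier results left 2 pluripotency and 2 retinoic acid hosts. Shorter spans drop genes by construction. The Spt16 library had 36669596 reads and the Oct4 library 15543450, and the part of depth in their overlap was not tested.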
